A study of Mus musculus with 4 samples.

Results

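Interferon gamma and interferon beta, together with the chains of their receptors, were traced through the immune cells of mouse melanomas after a transfer of T cells. The genes are the ligands Ifng and Ifnb1 and the receptor chains Ifngr1, Ifngr2, Ifnar1 and Ifnar2. They are 6 of the 32285 genes in the matrix, of which 21890 have at least 1 UMI (a unique molecular identifier, which counts a captured transcript once), and they were chosen by name and not by a measured level. All 6 have UMIs in every sample, although Ifnb1 has only 187 UMIs in 33368 cells.

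The cells came from tumours that YUMM1.7OVA cells, a mouse melanoma line that carries ovalbumin, formed in Rag2-/- mice aged 6 to 12 weeks, which make no mature T or B cells. Every mouse received activated OT-1 CD8+ T cells, which recognise an ovalbumin peptide, on day 7, and live CD45+ cells were sorted on day 10, 72 h after the transfer. NTT is the line that had not met a targeted therapy (cell line Y1.7_NTT_3A6), and RTT is its derivative that acquired resistance to inhibitors of the MAPK pathway (Y1.7_RTT_2B12). RTT_ROSA26 is an RTT line edited at the control locus ROSA26, and RTT_PTGS12KO is an RTT line edited in Ptgs1 and Ptgs2, the genes of the cyclooxygenases. The editing is in the melanoma cells, which the CD45 sort is meant to remove, so it was not checked in these data. A type named Myofibrobl remained with 351 cells, and whether melanoma cells are among them was not tested. The labels give 1 tumour for each condition, whereas legends of the study describe pooled tumours, and how many tumours a sample holds could not be settled. Either way each group is 1 sample, so no difference between groups could be tested. Every interval below is a 95% interval that covers counting error only. It says nothing of the spread between mice or between cells, and is too narrow where a few cells hold most UMIs.

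The NTT, RTT, RTT_ROSA26 and RTT_PTGS12KO samples held 8266, 7970, 6836 and 10296 cells, with medians of 7292.5, 12627, 13280 and 12219 UMIs per cell. Samples were pooled before loading and shared droplets in 3 loads. Of the cell barcodes, 75 occurred in more than 1 sample, and 0 occurred in more than 1 sample of the same load. The authors' 17 cell type names were used, and levels are given as CPM, the UMIs of a gene per 1000000 UMIs of the cells summed. In 3' tag counts CPM is not corrected for capture efficiency of each gene, so levels are compared between cells and samples and never between genes.

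Interferon gamma is a cytokine made mainly by activated T cells and natural killer (NK) cells. It binds a receptor of which the Ifngr1 product is the ligand-binding chain and the Ifngr2 product the signalling partner, and the kinases JAK1 and JAK2 then pass the signal on. Interferon beta is made by many cell types after nucleic acids or microbial products are sensed, and it binds the receptor of the Ifnar1 and Ifnar2 products, where the kinases JAK1 and TYK2 pass the signal on, in part through STAT2. In tumours, interferon gamma is known for raising antigen presentation and chemokine production by myeloid cells, and interferon beta for supporting the priming of T cells.

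In the GRCm38 build the ligands lie apart. Ifng is on the plus strand at chr10:118441046-118445892, Ifnb1 is an intronless gene on the minus strand at chr4:88522025-88522774, and Ifngr1 is on the plus strand at chr10:19591949-19610229. The other 3 receptor chains lie on the plus strand of chromosome 16 in the order Ifnar2 (chr16:91372783-91405589), Ifnar1 (chr16:91485238-91507441) and Ifngr2 (chr16:91547072-91565623). Il10rb, a chain shared by the receptors of interleukin 10 and interferon lambda, lies between Ifnar2 and Ifnar1. A readthrough gene model (Gm21970) overlaps Ifnar2 and Il10rb on their strand, and a model of unsettled type (Gm49751) overlaps Ifng. Neither model has a row in the matrix.

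The promoters are shown because the ligands were found in few cells and the receptor chains in nearly all types, and their promoters differ in composition as well. The 150 bases before the RefSeq start (GRCm38.p6) are printed 5′ to 3′ on the strand of the gene for both ligands and for both chains of the interferon gamma receptor. Capitals mark the TATA box letters TATAAA, the kappaB-type letters GGAAATTCC and the GC box letters GGGCGG, the last also as CCGCCC where it lies on the other strand.
Ifng, chr10:118440896-118441045, plus strand: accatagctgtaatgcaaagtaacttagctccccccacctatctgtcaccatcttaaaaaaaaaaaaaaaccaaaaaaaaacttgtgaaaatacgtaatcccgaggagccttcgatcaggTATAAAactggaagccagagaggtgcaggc
Ifnb1, chr4:88522795-88522944, minus strand: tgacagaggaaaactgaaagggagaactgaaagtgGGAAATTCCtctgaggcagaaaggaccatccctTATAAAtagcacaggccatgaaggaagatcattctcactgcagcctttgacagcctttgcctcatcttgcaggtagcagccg
Ifngr1, chr10:19591799-19591948, plus strand: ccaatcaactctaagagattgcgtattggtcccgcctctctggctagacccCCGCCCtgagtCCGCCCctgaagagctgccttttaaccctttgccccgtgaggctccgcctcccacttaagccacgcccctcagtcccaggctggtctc
Ifngr2, chr16:91546909-91547058, plus strand: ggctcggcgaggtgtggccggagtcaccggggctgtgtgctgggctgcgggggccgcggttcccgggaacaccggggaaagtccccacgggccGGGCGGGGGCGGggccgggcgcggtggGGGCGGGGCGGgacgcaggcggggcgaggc

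Both ligand windows hold 1 TATAAA, and none of the 4 receptor windows does. Over 32851 promoter windows of the same length, 7.57% hold TATAAA on either strand, 0.189% hold GGAAATTCC and 28.6% hold GGGCGG. The kappaB-type letters occur once in the Ifnb1 window and in none of the other 5. GGGCGG occurs at least 2 times in the windows of Ifngr1, Ifngr2 and Ifnar1, with overlapping matches in that of Ifngr2, and it is in neither the Ifnar2 window nor a ligand window. The GC content was 40.7% for Ifng, 48% for Ifnb1, 54.7% for Ifnar2, 61.3% for Ifngr1, 68.7% for Ifnar1 and 82.7% for Ifngr2, beside a median of 54% over all windows. A match describes these letters only, and its absence draws nothing about a factor.

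Ifng was abundant in the NTT and RTT_PTGS12KO tumours and close to absent in the RTT and RTT_ROSA26 tumours. Over all cells it reached 64.6 CPM in NTT (4482 UMIs, 62.8 to 66.6) and 72.4 CPM in RTT_PTGS12KO (10626 UMIs, 71.0 to 73.8). It reached 0.608 CPM in RTT (71 UMIs, 0.475 to 0.767) and 0.653 CPM in RTT_ROSA26 (72 UMIs, 0.511 to 0.823). The first pair of samples thus stood clear of the second pair, and within each pair the values were close.

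On the log2 scale of CPM + 1, which understates ratios of low levels, Ifng was 5.35 higher in NTT than in RTT (5.21 to 5.48, a fold of 106). It was 5.47 higher in RTT_PTGS12KO than in RTT_ROSA26 (5.33 to 5.60, a fold of 111). Between the 2 control resistant samples, RTT_ROSA26 and RTT, the difference was 0.04 (-0.15 to 0.23). The comparisons share samples, since RTT enters the first and the last and RTT_ROSA26 the second and the last. Few cells carried these sums, as 446 cells of NTT and 260 of RTT_PTGS12KO had an Ifng UMI, beside 55 of RTT and 63 of RTT_ROSA26. The level also varied between loads of the same sample, from 29.0 to 105 CPM in NTT and from 39.3 to 118 CPM in RTT_PTGS12KO. Without the 4 T cells of each sample that held the most Ifng, the log2 ratios were 4.63 and 4.29.

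T cells were the main source where Ifng was abundant. In NTT, 93 T cells (1.13% of the cells) held 75.8% of all Ifng UMIs (74.5 to 77.0), and in RTT_PTGS12KO 45 T cells (0.437%) held 94.7% (94.3 to 95.1). NK cells, innate lymphocytes that need no antigen receptor to release the cytokine, held 22.6% in NTT and 4.21% in RTT_PTGS12KO. With a load left out in turn, T cell shares ran from 61.9% to 80.6% in NTT and from 91.0% to 95.6% in RTT_PTGS12KO. NK shares then ran from 18.3% to 34.9% and from 3.43% to 7.28%. Only 1 T cell with 3 Ifng UMIs was recovered from RTT and 2 T cells with 2 Ifng UMIs from RTT_ROSA26. There most of the few Ifng UMIs lay in monocytes and macrophages, 87.3% in RTT and 80.6% in RTT_ROSA26, which is below their shares of the cells (91.0% and 89.8%), with a further 15.3% in the NK cells of RTT_ROSA26.

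**Figure D1:**
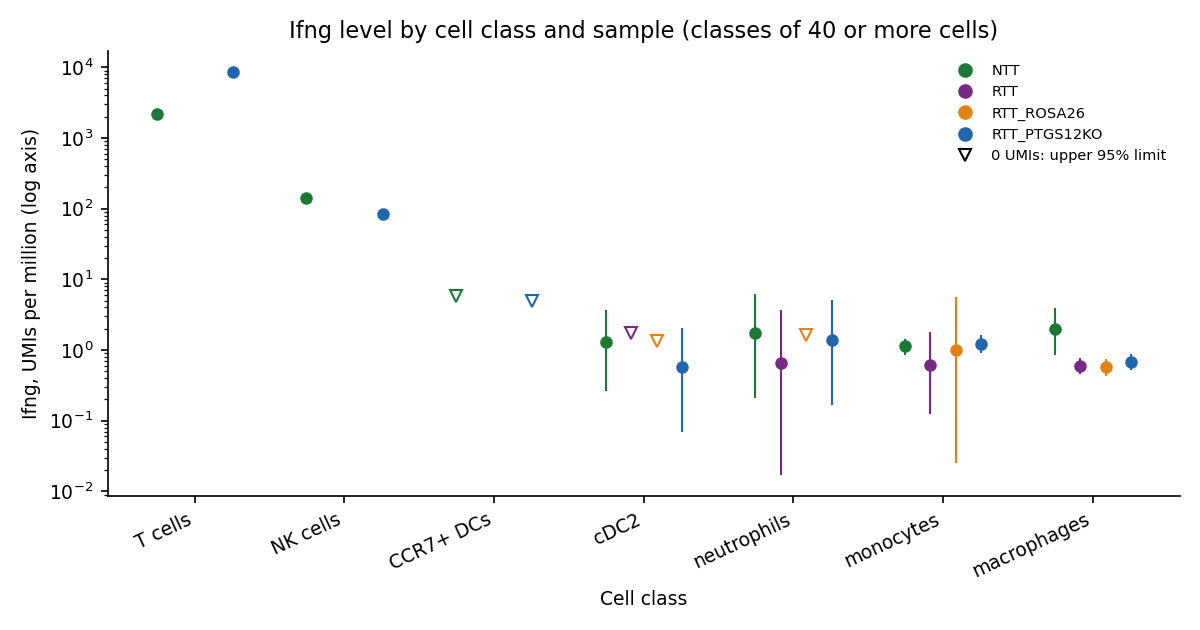
Ifng level in CPM on a log axis by cell class and sample, for sums of at least 40 cells, with 95% Poisson intervals as bars and open triangles for the upper limit of sums with 0 UMIs. T cells lie at 2177 and 8697 CPM, NK cells at 142 and 84.7 CPM, and monocytes and macrophages between 0.572 and 1.97 CPM in the 4 samples.

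The names of the lymphocytes held up against their markers in NTT and RTT_PTGS12KO and less so in RTT and RTT_ROSA26. All 93 T cells of NTT and all 45 of RTT_PTGS12KO had a UMI of a Cd3 gene, which encode the chains that go with the T cell receptor. Their summed T cell markers stood at 3782 and 3064 CPM. Ncr1 and Klrb1c, receptors that define NK cells, had 6 and 10 UMIs in the T cells of NTT and 0 in those of RTT_PTGS12KO. The NK cells of NTT and RTT_PTGS12KO had summed NK markers of 14777 and 9363 CPM and summed macrophage markers of 1094 and 1281 CPM. The 13 NK cells of RTT and the 26 of RTT_ROSA26 were different, with NK markers at 4669 and 5605 CPM and macrophage markers at 14303 and 7606 CPM. The 1 T cell of RTT had T cell markers at 1660 CPM and macrophage markers at 5857 CPM. The Ifng levels of those NK cells, 13.2 CPM (3 UMIs, 2.73 to 38.7) and 23.9 CPM (11 UMIs, 11.9 to 42.8), are therefore given as values and enter no ratio between samples. The part that macrophage RNA plays in those levels was not tested.

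Within T cells the level was higher in RTT_PTGS12KO than in NTT, 8697 against 2177 CPM, which is 2.00 on the log2 scale (1.94 to 2.05). The count of 45 T cells is below the 50 cells asked of a ratio, so this value is a description. A T cell of RTT_PTGS12KO held 224 Ifng UMIs in the mean and 10 in the median (quartiles 3 and 105). One of NTT held 36.5 in the mean and 2 in the median (quartiles 0 and 19). A few cells set both means, since the 4 highest cells held 54.3% of the T cell Ifng in NTT and 60.5% in RTT_PTGS12KO. Without them the level was 1069 CPM in NTT and 3938 CPM in RTT_PTGS12KO. The highest single cells held 768 and 1584 UMIs, and cells with at least 100 UMIs numbered 9 of 93 and 12 of 45.

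The share of T cells with an Ifng UMI was 71.0% in NTT and 91.1% in RTT_PTGS12KO, whose T cells were also deeper (medians of 12453 and 19994 UMIs). Thinned to 3000 UMIs per cell, the shares were 42.4% and 66.7%. The order thus stayed the same at equal depth. The levels of single loads ran from 676 to 3396 CPM in NTT and from 4021 to 14801 CPM in RTT_PTGS12KO, without overlap. Loads are parts of 1 sample and not replicates of it, and 1 load of RTT_PTGS12KO held only 8 T cells.

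**Figure D2:**
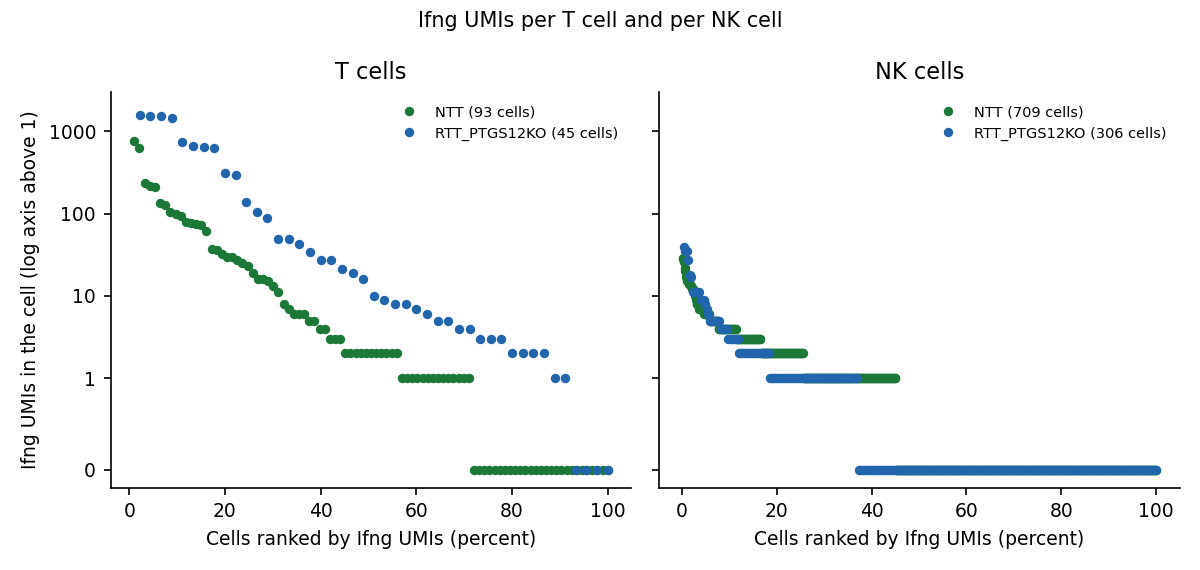
Ifng UMIs in each cell, ranked from highest to lowest, for T cells and NK cells of NTT and RTT_PTGS12KO. The highest T cells reach 768 UMIs in NTT and 1584 UMIs in RTT_PTGS12KO, while the highest NK cells hold 29 and 39.

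NK cells had a lower level of Ifng than T cells. Their Ifng stood at 142 CPM in NTT (709 cells, 1014 UMIs, 133 to 151) and 84.7 CPM in RTT_PTGS12KO (306 cells, 447 UMIs, 77.0 to 92.9), and loads ran from 131 to 147 and from 76.4 to 99.9 CPM. In RTT_PTGS12KO the level was thus 0.74 lower on the log2 scale (-0.90 to -0.58). Per cell the sums were almost equal, 1.43 Ifng UMIs in NTT and 1.46 in RTT_PTGS12KO, at median depths of 7669 and 15524 UMIs. The 4 highest cells held 10.4% of NK cell Ifng in NTT and 30.4% in RTT_PTGS12KO. An Ifng UMI was found in 45.0% and 36.9% of NK cells, and in 26.8% and 18.9% after thinning to 3000 UMIs.

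The direction in NK cells and the T cell share depend on which cells are called NK. When cells with at least 5 marker UMIs were named by the larger of their NK and T marker sums, 8 of the 45 T cells of RTT_PTGS12KO, with 2721 Ifng UMIs, became NK cells. All 8 had Cd3 UMIs (192 in all) and 0 UMIs of Ncr1 or Klrb1c, and 622 of their 730 UMIs of NK markers were of Gzma and Nkg7, cytotoxic genes that CD8+ T cells also use. In NTT 7 T cells with 199 Ifng UMIs moved, and these held 16 UMIs of Ncr1 and Klrb1c beside 142 Cd3 UMIs. With those names NK cells stood at 145 CPM in NTT and 392 CPM in RTT_PTGS12KO, so the log2 ratio turned to 1.43, and that of T cells was 1.39. The T cell share became 66.7% in NTT and 69.1% in RTT_PTGS12KO, and the NK share 27.1% and 29.8%. T cells held most of the Ifng under both sets of names.

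In myeloid cells Ifng stood at 1.12, 0.612, 0.998 and 1.22 CPM in monocytes of NTT, RTT, RTT_ROSA26 and RTT_PTGS12KO, and at 1.97, 0.604, 0.572 and 0.678 CPM in macrophages. Of the 57, 49, 58 and 102 monocytes and macrophages with an Ifng UMI, 55, 48, 58 and 94 held exactly 1. Taken as a percent of the level in lymphocytes, their Ifng was 0.234% in NTT and 0.052% in RTT_PTGS12KO. Markers of NK and T cells, which myeloid cells should lack, stood at medians of 0.166% and 0.164% there. Myeloid Ifng thus lay inside the range of these markers in NTT (0.075% to 0.527%) and below it in RTT_PTGS12KO (0.0893% to 0.575%). RTT and RTT_ROSA26 had only 14 and 28 lymphocytes, so no such percent is given for them. At least 3 UMIs of lymphocyte markers were found in 5.26%, 6.12%, 1.72% and 1.96% of the myeloid cells with an Ifng UMI in NTT, RTT, RTT_ROSA26 and RTT_PTGS12KO. Among those without one, the shares were 0.291%, 0.666%, 0.921% and 0.625%. The marked cells held 12 of 66, 16 of 62, 1 of 58 and 5 of 112 myeloid Ifng UMIs. All samples shared droplets, and the part of free RNA, doublets or misnamed cells was not tested. In RTT, 1 macrophage of the type TAM_C1q held 14 of the 71 Ifng UMIs of the whole sample. By marker UMIs it was 1 of 2 macrophages of RTT that became T cells. Together those 2 held 31 UMIs of T cell markers, among them 15 of Cd3 genes in 1 cell. CCR7+ DCs, the mature dendritic cells that meet T cells, had 0 Ifng UMIs in 89 cells of NTT and 81 cells of RTT_PTGS12KO, which allows up to 3 UMIs.

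Ifnb1 was rare in the sorted CD45+ cells of every tumour. Melanoma cells, which the study describes as a source of interferon beta, are outside that sort. It had 6 UMIs in NTT, 55 in RTT and 63 in each of RTT_ROSA26 and RTT_PTGS12KO. In that order the levels were 0.0865 CPM (0.0318 to 0.188), 0.471 CPM (0.355 to 0.613), 0.572 CPM (0.439 to 0.731) and 0.429 CPM (0.330 to 0.549). The cells with a UMI numbered 5, 8, 7 and 22, or 0.0605%, 0.100%, 0.102% and 0.214% of the samples' cells. By UMIs NTT was the lowest sample, while by cells RTT_PTGS12KO was the highest. The study measured less interferon beta protein in RTT than in NTT, in tumour lysates and in supernatants of the melanoma cells. That order is the opposite one, for another molecule and other cells.

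Single cells decide those sums. One Infl_Mono cell of RTT_ROSA26 held 52 Ifnb1 UMIs of its 10504, and one TAM_C1q cell of RTT held 45 of its 13721, together 51.9% of the 187 UMIs of the series. The highest cells of RTT_PTGS12KO held 12 and 11 UMIs, and the highest of NTT held 2. Over the series 23 of 42 cells held exactly 1 UMI and 4 held at least 10. On the log2 scale of CPM + 1, Ifnb1 was 0.44 lower in NTT than in RTT (-0.54 to -0.27) and differed by -0.14 between RTT_PTGS12KO and RTT_ROSA26 (-0.31 to 0.04). Without the highest cell of each sample these values were -0.04 and 0.29, and the levels were 0.0577, 0.0857, 0.0998 and 0.347 CPM in NTT, RTT, RTT_ROSA26 and RTT_PTGS12KO. With those 4 cells left out, RTT_PTGS12KO and not RTT_ROSA26 had the highest level.

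**Figure D3:**
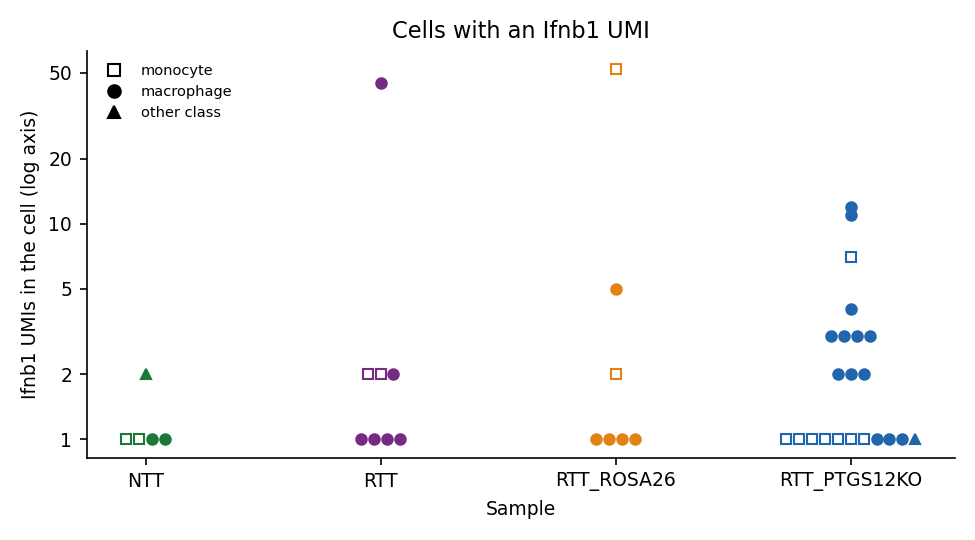
Each of the 42 cells with an Ifnb1 UMI, by sample, with its number of Ifnb1 UMIs, drawn as open squares for monocytes, circles for macrophages and triangles for other cells. RTT_PTGS12KO has 22 such cells with at most 12 UMIs, while RTT and RTT_ROSA26 have 8 and 7 with 1 cell each at 45 and 52.

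Of the 42 cells with an Ifnb1 UMI, 40 were named monocytes or macrophages, classes that make up 88.5% of all cells, so the count is near their share of cells. The 4 cells with at least 10 UMIs were all of these classes. For the 23 cells with 1 UMI, the part of free RNA was not tested. Monocytes and macrophages held 100% of the Ifnb1 UMIs in RTT and RTT_ROSA26, 98.4% in RTT_PTGS12KO and 66.7% (4 of 6 UMIs) in NTT, where 1 NK cell held the other 2. Macrophages had 0.492, 0.522, 0.0904 and 0.534 CPM in NTT, RTT, RTT_ROSA26 and RTT_PTGS12KO, and monocytes 0.0388, 0.816, 53.9 and 0.336 CPM. The value of 53.9 CPM comes from the single cell with 52 UMIs among 144 monocytes. T cells held 0 Ifnb1 UMIs in every sample.

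Other interferons were hardly seen. Of 19 further interferon genes listed, 16 had 0 UMIs in all cells, among them 13 of 14 of the Ifna type, and Ifnab, Ifnk and Ifnz had 1, 13 and 11 UMIs. For the interferon lambda receptor, Ifnlr1 had 23 UMIs while its shared chain Il10rb had 38233. At this depth the interferon transcripts detected in more than a trace in the sorted cells were thus those of Ifng and, in few cells, Ifnb1.

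The receptor chains were found in nearly every cell type, and Ifngr1 had the median over types farthest from 0 in each of the 3 comparisons. The sums rest on few cells in places, as RTT_ROSA26 had 144 monocytes, 86 of them named Infl_Mono, and NTT had 308 macrophages. In monocytes it stood at 122, 200, 187 and 107 CPM in NTT, RTT, RTT_ROSA26 and RTT_PTGS12KO. In macrophages it stood at 110.5, 213, 152 and 108 CPM. In cDC2s, dendritic cells that present antigen mainly to CD4+ T cells, it stood at 220, 499, 487 and 286 CPM, and in neutrophils at 126, 155, 162 and 93.2 CPM. In each of these 4 classes NTT and RTT_PTGS12KO, the samples with abundant Ifng, had the 2 lowest levels of Ifngr1.

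Within monocytes Ifngr1 was 0.71 lower in NTT than in RTT on the log2 scale of CPM + 1 (-0.81 to -0.61) and 0.80 lower in RTT_PTGS12KO than in RTT_ROSA26 (-1.01 to -0.58). Within macrophages it was 0.94 lower (-1.08 to -0.81) and 0.49 lower (-0.53 to -0.46). The macrophages of NTT and RTT were of different types, with TAM_H2Ab1 making up 192 of 308 in NTT and 63 of 6734 in RTT, and the ratio was -0.54 with cell types weighted equally. In the types with at least 50 cells in both, it was -0.43 in TAM_H2Ab1 (-0.77 to -0.09) and -0.66 in TAM_cycling (-0.90 to -0.42). For RTT_PTGS12KO against RTT_ROSA26 it was -0.60 in TAM_C1q, -0.49 in TAM_Spp1 and -0.54 in TAM_cycling. In monocytes that comparison gave -1.28 in Infl_Mono (-1.57 to -0.99) and -0.18 in Monocyte_1 (-0.58 to 0.24). The control line itself differed from RTT in macrophages, by -0.49 (-0.52 to -0.45), as much as RTT_PTGS12KO differed from it, and by -0.10 in monocytes (-0.33 to 0.13). Loads of 1 sample lay close together in macrophages, at 106 to 114 CPM in NTT and 107 to 109 CPM in RTT_PTGS12KO, against 206 to 220 CPM in RTT and 146 to 158 CPM in RTT_ROSA26. The share of macrophages with an Ifngr1 UMI was 62.7%, 85.7%, 79.1% and 74.2%, and 28.1%, 45.1%, 35.9% and 26.7% after thinning to 3000 UMIs.

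Over the monocyte and macrophage classes none of the receptor ratios passed 2-fold in the main setting. In an alternative setting that of Ifngr1 in macrophages of NTT against RTT did, at -1.06. Within single types the Ifngr1 ratio passed 2-fold in cDC2s for NTT against RTT, and in Macro and Infl_Mono for RTT_PTGS12KO against RTT_ROSA26. The share of all genes past 2-fold was not counted in single types, so whether these values are unusual there cannot be judged. Among genes with a mean of at least 10 CPM, 0 of the 4 receptor chains did so in monocytes for NTT against RTT, where 3% of all 6499 genes did, and 0 of 4 in macrophages, where 8.38% of 6997 did. For RTT_PTGS12KO against RTT_ROSA26 the count was 0 of 4 in monocytes (3.5% of 6405 genes) and 0 of 4 in macrophages (3.15% of 7086). For RTT_ROSA26 against RTT it was 0 of 4 in both (3.23% of 6440 and 1.2% of 7058). In NK cells of RTT_PTGS12KO against NTT it was 0 of the 3 chains that met the minimum (2.26% of 6778). The median log2 ratio over all genes lay between -0.08 and 0.06 in the 7 sums.

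The lower level of Ifngr1 was spread over cell types. For NTT against RTT it was lower in 6 of 6 types with at least 50 cells in both samples, with the interval below 0 in 5, a median of -0.64 and a range from -1.18 in cDC2s to -0.29 in neutrophils. For RTT_PTGS12KO against RTT_ROSA26 it was lower in 8 of 9 types, with the interval below 0 in 7, a median of -0.60 and a range from -1.50 in the type named Macro to 0.16 in Ctsk_Macro. For RTT_ROSA26 against RTT it was lower in 7 of 10 types, with a median of -0.18 and the interval below 0 in 5. Cell types of 1 sample share their source and are not replicates of it.

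**Figure D4:**
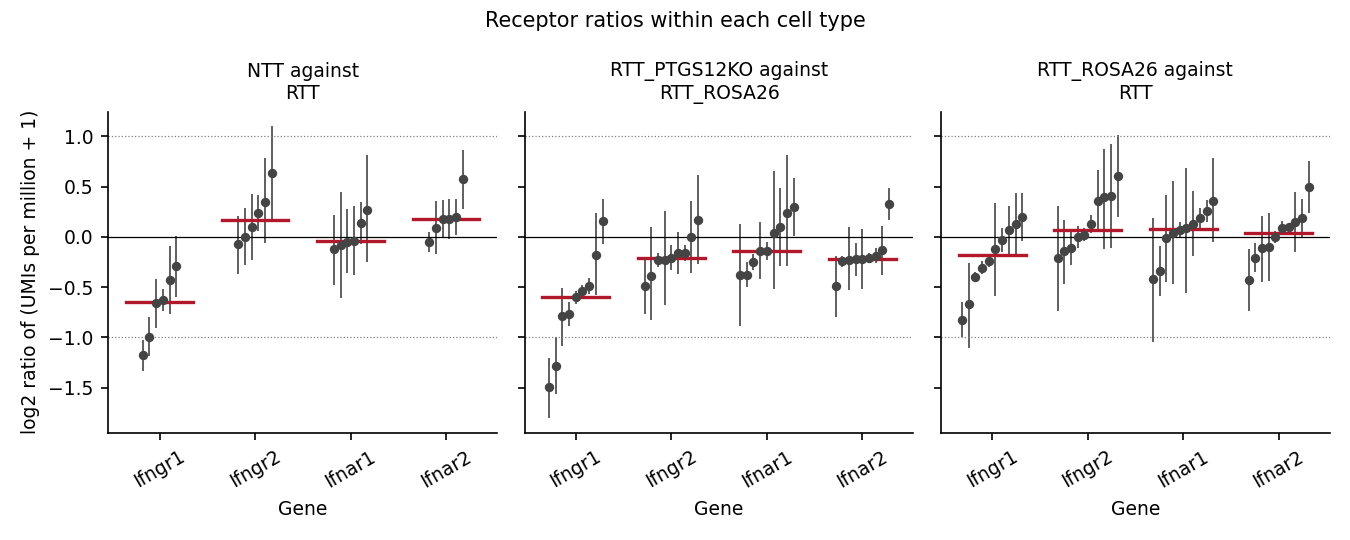
Log2 ratios of CPM + 1 of the 4 receptor chains within each cell type for the 3 comparisons, with 95% counting intervals, a red line at the median over types and dotted lines at 2-fold. Ifngr1 sits below 0 in most types, with medians of -0.64, -0.60 and -0.18, while the medians of the other chains lie between -0.22 and 0.18.

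Ifngr2, Ifnar1 and Ifnar2 had medians over types closer to 0. Ifngr2 stood at 86.7, 76.9, 82.8 and 73.0 CPM in monocytes and at 85.4, 83.9, 85.3 and 74.4 CPM in macrophages of NTT, RTT, RTT_ROSA26 and RTT_PTGS12KO. Ifnar1 stood at 63.9, 60.4, 55.9 and 62.4 CPM in monocytes and at 57.1, 65.2, 67.0 and 58.6 CPM in macrophages. Ifnar2 stood at 219, 218, 197 and 176 CPM in monocytes and at 199.5, 180.0, 178.9 and 158.5 CPM in macrophages. RTT_PTGS12KO had the lowest Ifngr2 and Ifnar2 in both classes, although in monocytes its intervals overlap with those of 1 or 2 other samples. For the 3 chains the median over types lay between -0.22 and 0.18 in every comparison. Single types went further, and in neutrophils of NTT against RTT Ifngr2 was 0.64 higher (0.18 to 1.10) and Ifnar2 0.57 higher (0.28 to 0.87), beyond the -0.29 of Ifngr1.

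**Figure D5:**
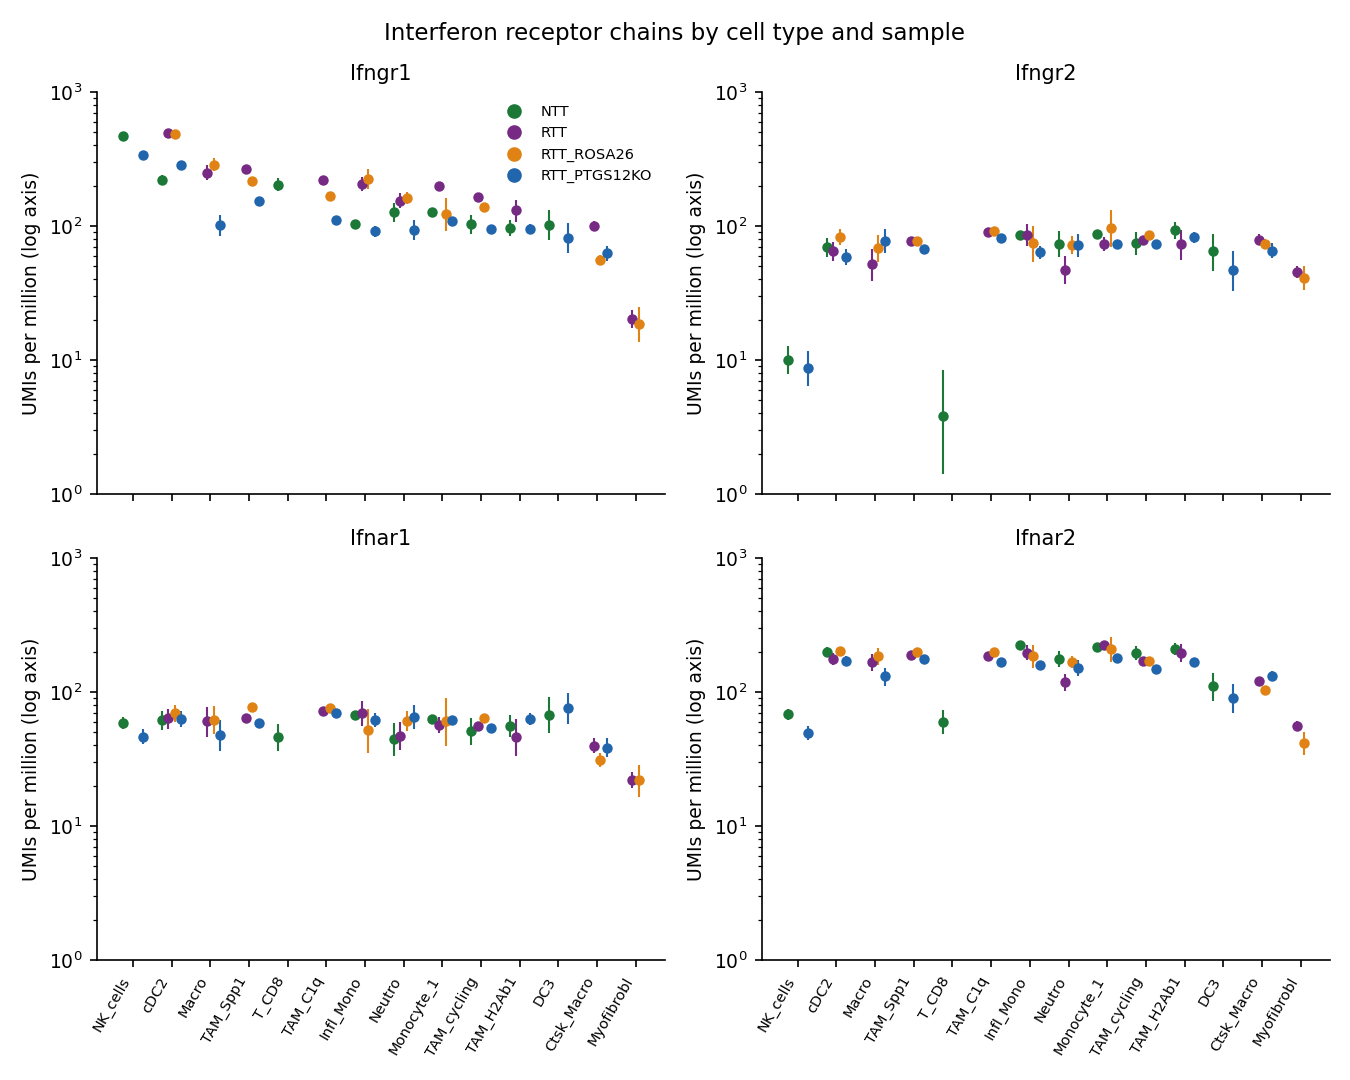
Level in CPM of each receptor chain by cell type and sample, for sums of at least 50 cells, with 95% Poisson intervals. Ifngr1 is highest in NK cells and cDC2s, Ifngr2 is lowest in T cells and NK cells, and Ifnar2 is lower in T cells, NK cells and Myofibrobl than in the myeloid types.

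Between cell types the chains of the interferon gamma receptor were ordered differently. By the median over samples, Ifngr1 was highest in NK cells (471 CPM in NTT and 339 in RTT_PTGS12KO), then in cDC2s and Macro, and lowest in Myofibrobl (20.3 CPM in RTT and 18.7 in RTT_ROSA26). Of the 13 pairs of neighbours in that order, 12 had overlapping ranges over samples, and Myofibrobl alone stood apart from the type above it. T cells had 204 CPM in NTT and 117 CPM in RTT_PTGS12KO. Ifngr2 was lowest in T cells (3.84 CPM from 6 UMIs in NTT and 3.46 CPM from 4 UMIs in RTT_PTGS12KO) and in NK cells (10.1 and 8.72 CPM). Ranges of neighbours overlapped in 10 of 13 pairs for Ifngr2, 10 for Ifnar1 and 12 for Ifnar2.

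The Ifngr2 in lymphocytes was close to the level of markers that they should lack. In NK cells of NTT it was 11.6% of the level in monocytes and macrophages, where macrophage markers that NK cells should lack stood at 11.9% to 33.4% with a median of 12.6%. In RTT_PTGS12KO the values were 11.8% for Ifngr2, from 46 UMIs, and 8.92% to 11.5% for the markers. In T cells Ifngr2 was at 4.44% in NTT and 4.67% in RTT_PTGS12KO, beside marker medians of 9.11% and 6.82%. Ifngr2 was thus not detectable above these markers in T cells of both samples and NK cells of NTT, and in NK cells of RTT_PTGS12KO it was slightly above all 9 of them. Ifnar2 stood at 31.4% in NK cells of NTT, inside the range of the markers, and at 27.7% in T cells, where the markers ran from 6.09% to 26.1%. In RTT_PTGS12KO it was at 30.1% in NK cells and 32.1% in T cells, above all 9 markers, which ran from 8.92% to 11.5% and from 4.46% to 10.4%.

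The ratio of Ifngr2 to Ifngr1 tags, which needs no scaling between samples, sets the classes apart. It was 0.0214 in NK cells of NTT (0.0167 to 0.0270) and 0.0257 in those of RTT_PTGS12KO, and 0.0189 and 0.0296 in T cells. It was 0.712, 0.385, 0.444 and 0.682 in monocytes of NTT, RTT, RTT_ROSA26 and RTT_PTGS12KO, and 0.773, 0.394, 0.561 and 0.692 in macrophages. In cDC2s it was 0.316, 0.130, 0.171 and 0.206, and in Myofibrobl of RTT and RTT_ROSA26 it was 2.24 and 2.20. As Ifngr2 is at the level of markers they should lack in T cells of both samples and NK cells of NTT, those ratios are upper limits. In myeloid cells the ratio was higher in NTT and RTT_PTGS12KO than in RTT and RTT_ROSA26. The ratio of Ifnar1 to Ifnar2 ran from 0.254 to 0.429 in the myeloid classes apart from CCR7+ DCs (0.614 and 0.851), and stood at 0.861 and 0.939 in NK cells and 0.766 and 0.639 in T cells.

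Between the samples with lymphocytes, Ifngr1 in NK cells was lower in RTT_PTGS12KO than in NTT. The log2 ratio was -0.47 for Ifngr1 (-0.56 to -0.39), -0.33 for Ifnar1 (-0.56 to -0.11) and -0.46 for Ifnar2 (-0.67 to -0.24), and it was -0.19 for Ifngr2 (-0.69 to 0.31), whose interval includes 0. The NK cells of RTT_PTGS12KO were deeper and had lower summed NK markers, as given above, and the part of either was not tested. Thinned to 3000 UMIs, the share of NK cells of NTT and RTT_PTGS12KO with a UMI was 74.4% and 63.8% for Ifngr1 and 16.0% and 11.96% for Ifnar1. It was 17.9% and 18.3% for Ifnar2 and 1.48% and 1.99% for Ifngr2, so the lower level of Ifnar2 was not seen in the share of cells. In T cells, as a description, Ifngr1 was 0.80 lower (-1.10 to -0.51). In monocytes and macrophages the same comparison gave -0.18 and -0.04 for Ifngr1 and -0.31 and -0.33 for Ifnar2.

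Below the receptors, Stat2, a factor of the response to type I interferon, was higher in macrophages of the tumours with Ifng. It stood at 81.2 CPM in NTT against 15.1 CPM in RTT (2.36 on the log2 scale) and at 28.2 CPM in RTT_PTGS12KO against 9.96 CPM in RTT_ROSA26 (1.41). The kinase gene Jak2 stood at 41.8 CPM in NTT macrophages against 20.3 CPM in RTT (1.01), while the kinase gene Jak1 differed by -0.17 there and by 0.00 between RTT_PTGS12KO and RTT_ROSA26. Both Stat2 ratios thus passed 2-fold, as did 8.38% and 3.15% of all genes in these sums. In monocytes Stat2 stood at 90.0 against 55.7 CPM (0.68) in the first comparison and at 55.1 against 61.9 CPM (-0.17) in the second, and Jak2 differed by 0.56 and -0.66, all short of 2-fold.

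Genes of the response to interferon gamma were higher in macrophages of NTT than of RTT and in those of RTT_PTGS12KO than of RTT_ROSA26, over sums of unlike types. All 8 listed type II genes (among them the chemokine gene Cxcl9 and the regulators Irf1 and Ciita) were past 2-fold higher in NTT than in RTT, with a median of 3.18, and all 8 in RTT_PTGS12KO than in RTT_ROSA26, with a median of 3.43. For RTT_ROSA26 against RTT, 3 of 6 measured genes (Irf1, Gbp2 and Iigp1) were past 2-fold lower, beside 1.2% of all genes in either direction. Within types, a division made after the values of the classes were seen, the type II median for NTT against RTT was 0.00 in TAM_H2Ab1 (192 and 63 cells) and 2.85 in TAM_cycling (79 and 873 cells). For RTT_PTGS12KO against RTT_ROSA26 it was 2.81 in TAM_C1q, 2.66 in TAM_Spp1, 3.796 in TAM_cycling and 3.793 in Ctsk_Macro. The higher level was thus found in each of these types but TAM_H2Ab1. In the monocyte class 2 of 8 were higher in the first comparison and 2 of 8 in the second, and 1 of 8 was lower in the third, beside 3%, 3.5% and 3.23% of all genes in either direction. Within Infl_Mono and Monocyte_1 the type II medians were 0.99 and 0.44 in the first comparison and 1.11 and 0.46 in the second. The listed type I genes were higher in 9 of 9 (median 3.45) and 5 of 6 (median 1.71) in macrophages of the first and second comparisons. Beside these macrophage counts stand 8.38% and 3.15% of all genes. Within types the type I median was 1.16 in TAM_H2Ab1 and 2.16 in TAM_cycling for NTT against RTT, and 1.18 in TAM_C1q, 1.20 in TAM_Spp1, 1.58 in TAM_cycling and 2.78 in Ctsk_Macro for RTT_PTGS12KO against RTT_ROSA26. In monocytes 2 of 9 were higher for NTT against RTT and 5 of 9 lower for RTT_PTGS12KO against RTT_ROSA26 (median -1.05). Infl_Mono cells were 86 of the 144 monocytes of RTT_ROSA26 and 635 of the 4015 of RTT_PTGS12KO, and within Infl_Mono and Monocyte_1 the type I medians were 0.15 and -0.07. In NK cells 7 of 8 type I genes were lower in RTT_PTGS12KO than in NTT and 1, Cxcl10, was higher, beside 2.26% of all genes. The lists were made with results of these data known and are no independent evidence.

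Genes that induce the ligands were measured as well. Of the inducers of Ifng, Il15, a cytokine that sustains NK and T cells, stood at 33.1 against 10.8 CPM in monocytes of NTT and RTT, and the interleukin 12 receptor chain Il12rb1 at 25.1 against 10.8 CPM, which makes 2 of 3 measured genes past 2-fold, as in macrophages. Of all genes, 3% passed 2-fold in monocytes and 8.38% in macrophages of that comparison. For RTT_PTGS12KO against RTT_ROSA26 1 of 3 was past 2-fold in monocytes (3.5% of all genes) and 0 of 1 in macrophages (3.15%). In NK cells 1 of 8, the interleukin 18 receptor gene Il18r1, was lower in RTT_PTGS12KO than in NTT (43.0 against 88.0 CPM). The list had a median of -0.55 there, and 2.26% of all genes passed 2-fold in either direction. Of the inducers of Ifnb1, 4 of 10 were past 2-fold higher in macrophages of NTT than of RTT, where 8.38% of all genes passed in either direction. In monocytes 1 of 9 was, Irf7, and 0 of 11 in monocytes of RTT_PTGS12KO against RTT_ROSA26, beside 3% and 3.5% of all genes. The 4 in macrophages were Irf7, a factor that amplifies interferon production (371 against 19.0 CPM), the sensors Ifih1 and Ddx58, and Tmem173, which encodes STING. In RTT_PTGS12KO against RTT_ROSA26 macrophages 1 of 9 was, Irf7 (1.27), beside 3.15% of all genes.

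The genes with the most similar pattern were taken over 42 sums of a cell type in a sample, among 8432 genes, by Pearson's r of log2(CPM + 1). The sums share 4 samples, so r is a description. For Ifng they were Nefh (0.971), Cd3g, Ehd3, Cd3d and Camk4. For Ifngr1 they were Rassf5 (0.820), Rnf166, Madd, Slc38a1 and Gpr171, and for Ifngr2 Plekho1 (0.932), Ralb, Sh3pxd2b, Cttnbp2nl and Asah1. For Ifnar1 they were Cdc42 (0.837), Arl4c, Arrb2, Rftn1 and Coro1a, and for Ifnar2 Milr1 (0.944), Cd300c2, Ctss, Rasgef1b and Tifab. Between members, Ifng gave -0.898 with Ifngr2, -0.50 with Ifnar2, -0.09 with Ifnb1, -0.06 with Ifnar1 and 0.27 with Ifngr1. Of the sums, 1 was of T cells and 2 were of NK cells, the types with high Ifng and little Ifngr2. No r was taken without them.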

How the data were processed

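The authors deposited 1 matrix of raw UMI counts, 33368 cells by 32285 genes, and a table of each cell's sample, load and named type. The submitters' processing notes name Cell Ranger, the mm10 build and Seurat 4.3.0. The study's methods describe a filter of more than 1000 genes, less than 15% of UMIs mitochondrial and less than 40% ribosomal, and type names given after Harmony integration. The filter on genes and mitochondrial UMIs was met by all 33368 cells. Oligo labels remove doublets between samples. No doublet caller was run, and leaving out the 5% of cells with the most UMIs was an alternative.

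UMIs were summed per sample and class (monocytes: Monocyte_ names and Infl_Mono; macrophages: TAM_ names and Ctsk_Macro) in Python 3.11.15 (numpy 2.4.6, pandas 2.3.3, scipy 1.17.1), scaled to CPM and compared as log2 of CPM + 1. Ratios needed 50 cells in both sums (chain ratios and the plot of Ifng by class 40), and counts past 2-fold a mean of 10 CPM. Intervals are exact 95% Poisson, conditional binomial or Clopper-Pearson intervals. With 1 sample per group no test was made. As an alternative scaling, edgeR 4.0.16 (R 4.3.3) gave TMM factors. Coordinates came from GENCODE, promoters from RefSeq, and figures from matplotlib 3.10.9. On simulated macrophage counts for NTT against RTT (6946 genes), 96.5% of 200 changed genes came within 0.5 log2 of the truth.

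Members and gene lists were chosen with earlier results of these data known. Named genes are the 6 members, up to 4 examples per list by mean CPM, and the 5 genes most like a member. Genes named outside that rule were chosen after their values were seen. A gene of the list for the signal path, and the counts over that list, are not reported here. Alternatives were a stricter cell filter, classes by marker UMIs, CPM + 10, no CPM minimum, TMM, equal weight of cell types, thinning, and leaving out a load. Leaving out the highest cells, and cells of other classes with lymphocyte markers, were added after seeing the data.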

Additional observations from a re-analysis of the deposited data

Results flagged for a closer look

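The Ifnb1 ratio of RTT_PTGS12KO against RTT_ROSA26 went opposite ways in monocytes (-5.36) and macrophages (0.49), a difference of -5.85 on the log2 scale. That of RTT_ROSA26 against RTT did so too, at 4.92 and -0.48, a difference of 5.40. One cell held 52 of the 54 Ifnb1 UMIs of the monocytes of RTT_ROSA26, and one held 45 of the 51 of the macrophages of RTT. The Ifng ratio of RTT_PTGS12KO against NTT was 2.00 in T cells and -0.74 in NK cells, a difference of 2.73, and the NK value turned to 1.43 when classes were set by marker UMIs. None of these differences was tested, since each group is 1 sample.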

How the results depend on the processing

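No paired analysis was possible because there is only 1 sample in each group. Of the alternative values of the principal results other than leaving out a load, 58 moved and 84 did not. To move was to leave the counting interval of the main value. The 7 counts of genes past 2-fold, all moved, were judged by a set fold of the count instead. For the other values these numbers were 21 and 189. Each Ifngr1 ratio kept its sign in 8 of 8 settings, from -1.06 to -0.54 and -0.81 to -0.62 in macrophages and monocytes of NTT against RTT, -0.52 to -0.37 and -0.95 to -0.63 where RTT_PTGS12KO was set against RTT_ROSA26, and -0.58 to -0.44 and -0.27 to -0.01 for RTT_ROSA26 against RTT. The cause of a change was not tested unless it follows from the cells left out. Ifnb1 is limited by its 187 UMIs, and lymphocytes of RTT and RTT_ROSA26 by their number.

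With over 1500 genes and under 10% mitochondrial UMIs, the T and NK shares of Ifng in NTT were 79.6% and 18.9%, NK cells of NTT had 122 CPM of Ifng and 434 CPM of Ifngr1, and the NK ratio of RTT_PTGS12KO against NTT was -0.55. Without the 5% of cells with the most UMIs, T shares were 62.4% in NTT and 93.8% in RTT_PTGS12KO and NK shares 34.9% and 4.82%, and all Ifnb1 of NTT (100%) was myeloid. There the Ifng ratios over all cells were 4.85 and 5.19, that of Ifnb1 for NTT against RTT -0.54, NK levels of Ifng 190 and 97.9 CPM, of Ifngr1 589 and 405 CPM and of Ifngr2 in NTT 7.07 CPM, and the ratios of RTT_PTGS12KO against NTT -0.95 in NK and 2.31 in T cells. With classes by marker UMIs, T shares were 66.7% and 69.1%, NK shares 27.1% and 29.8%, the myeloid share of Ifng in RTT 64.8%, NK Ifng in RTT_PTGS12KO 392 CPM, and the NK and T cell ratios 1.43 and 1.39.

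Without the 4 T cells with most Ifng, T shares were 58.9% and 87.6%, NK shares 38.4% and 9.85%, the Ifng ratios 4.63 and 4.29, and the T cell ratio 1.88. Without the cell with most Ifnb1, the myeloid share in NTT was 100% and the ratios -0.038 and 0.29. With CPM + 10 the Ifng ratios were 2.81 and 2.95 and that of Ifnb1 for NTT against RTT -0.054. With TMM factors Ifngr1 in macrophages was -0.40 (RTT_PTGS12KO against RTT_ROSA26) and -0.58 (the control line against RTT), and with cell types weighted equally -0.37 and -0.44, with -0.54 in macrophages and -0.81 in monocytes for NTT against RTT. With TMM factors the macrophage ratios of Ifngr2 and Ifnar1 for RTT_ROSA26 against RTT were -0.07 and -0.06. With no CPM minimum, genes past 2-fold numbered 487 and 1097 in monocytes and macrophages of NTT against RTT, 1272 and 364 with RTT_PTGS12KO against RTT_ROSA26, 1488 and 139 with RTT_ROSA26 against RTT, and 426 in NK cells. Thinned to 3000 UMIs, Ifng was found in 42.4% and 66.7% of T cells and 26.8% and 18.9% of NK cells.

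Leaving out a load in turn moved 27 of the principal values and left 63. T shares ran from 61.9% to 80.6% in NTT and 91.0% to 95.6% in RTT_PTGS12KO, NK shares from 18.3% to 34.9% and 3.43% to 7.28%, and the myeloid share of Ifng from 72.9% to 91.7% in RTT_ROSA26. Myeloid shares of Ifnb1 ran from 50% to 100% in NTT and 96.7% to 100% in RTT_PTGS12KO. Ifng ratios ran from 4.83 to 5.51, 4.70 to 5.88 and -0.11 to 0.25 in the 3 comparisons, those of Ifnb1 from -0.64 to 0.063 and -0.51 to 0.37, the T cell ratio from 1.95 to 2.16 and the NK ratio from -0.86 to -0.60. Ifngr1 in macrophages of RTT_PTGS12KO against RTT_ROSA26 ran from -0.52 to -0.46.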

Other observations

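Within T cells, genes released or displayed on activation were looked at beside Ifng, a choice made after seeing the data. Over the 93 T cells of NTT and the 45 of RTT_PTGS12KO, Spearman's rho with Ifng UMIs was 0.57 and 0.67 for the chemokine gene Ccl3, 0.65 and 0.68 for Ccl4, 0.52 and 0.38 for Xcl1 and 0.48 and 0.42 for Tnfrsf9, which encodes the costimulatory receptor 4-1BB. For Gzmb, which encodes granzyme B, it was 0.14 and 0.26. Other genes of activation lay below Ccl3, Ccl4, Xcl1 and Tnfrsf9 in both samples. Their values were 0.42 and 0.11 for Nr4a1, 0.34 and 0.30 for Nr4a3, 0.18 and 0.18 for Cd69, 0.15 and 0.12 for Tnf and -0.08 and 0.20 for Il2. Cells of 1 sample share their source and depth differs between cells, so these are descriptions. Il2, the T cell growth factor, stood at 7.05 CPM (11 UMIs) in T cells of NTT and at 260 CPM (301 UMIs) in those of RTT_PTGS12KO.

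Cells with at least 3 UMIs of the type II response genes were set beside cells of the same type and sample with 0, in 13 pairs of sums. Ifngr1 was lower in the cells with at least 3 in 4 of 13 pairs, with a median log2 ratio of 0.07 and a range from -0.69 to 0.84. The interval lay below 0 in 2 pairs and above 0 in 3. The lowest value came from NK cells of NTT, at 408 CPM in 391 cells with at least 3 against 661 CPM in 79 with 0. In these cells Ifngr2, which lay near stray macrophage markers in NK cells, went the other way. It stood at 13.3 CPM (65 UMIs) against 2.11 CPM (1 UMI), a log2 ratio of 2.20 (0.12 to 3.78). The medians were 0.11 for Ifngr2, 0.19 for Ifnar1 and 0.01 for Ifnar2. Deeper cells, and cells with free RNA of other cells, pass a count of 3 UMIs more easily, and neither part was tested.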
